A study of Arabidopsis thaliana with 48 samples.

Results

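Arabidopsis thaliana plants carrying the spider mite Tetranychus urticae were compared at 4 d and at 24 h after the mites were put on, to see what was kept and what was lost of the first-day response. The comparison holds the 8 libraries that the labels place in the infested groups of these times, 4 at each time, out of 48 libraries in the series. All plants were of the accession Col-0 and carried no mutation or transgene named in the labels. They were 3 weeks old at the start, grew in peat moss and vermiculite at long days, and stood in a cylinder. Infested plants received 20 adult female mites each, and control plants received none. Every library came from the pooled aerial parts of 4 plants, which the labels call a biological replicate. The 8 control libraries of the same times, from plants of the same age without mites, were used to tell what changed from 24 h to 4 d without infestation.

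Spider mites pierce single leaf cells and suck out their content. Leaves answer such feeding mainly through jasmonic acid (JA), which is made from a plastid fatty acid by lipoxygenases (LOX), allene oxide synthase (AOS), allene oxide cyclases (AOC) and OPR3. Its isoleucine conjugate brings JAZ repressors to the receptor COI1 for breakdown, which frees the MYC factors and a separate ERF branch led by ORA59. The MYC branch turns on proteins such as VSP2, and the ERF branch turns on defensins such as PDF1.2. Salicylic acid (SA) is a further defence hormone that is known to oppose JA. A set of ERF, ZAT and WRKY factors answers touch, wounding and cold within minutes and is short-lived.

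The infested libraries held 16.5 to 17.6 M counts at 24 h and 19.6 to 21.3 M at 4 d, and the control libraries of these times 17.7 to 20.4 M. On the first principal component of the 16 libraries, which took 44.9% of the variance, infested libraries lay from 28.17 to 54.46 and control libraries from -62.31 to -19.42. On the next component, with 13.6%, control libraries lay from -35.46 to -28.45 at 24 h and from 28.03 to 37.48 at 4 d, while infested libraries of both times lay between -17.69 and 11.44. Control libraries were not alike in JA genes. Summed over the 10 MYC-branch defence genes, they stood at 611, 4900, 2040 and 1130 CPM (read counts scaled to a common library size) at 24 h and at 2020, 693, 697 and 3400 at 4 d. Infested libraries stood at 12000 to 20400 CPM at 24 h and 10600 to 12600 at 4 d, above every control library. The comparisons with control were therefore repeated without control replicate 2 of 24 h and control replicates 1 and 4 of 4 d, a choice made after seeing these values. It followed no single cutoff on this sum, since replicate 3 of 24 h, at 2040 CPM, stayed in. Over the 12 JAZ genes that library stood at 450 CPM, and those left out at 850, 740 and 963 CPM. The control libraries that remained reached 2040 CPM in MYC-branch genes at 24 h and 697 at 4 d, which favours a larger difference at 4 d. Counts, classes and calls from this repeat, with the 3 high control libraries left out, are given beside many of the groups below. Not every count that it moved is given. The libraries were chosen by JA genes, so leaving them out by itself lowers the control level of such genes. For JA genes the repeat therefore shows how far results rest on these libraries, and is no separate support. Of 9 genes often used for scaling, none differed between infested plants at 4 d and 24 h in the fit of all libraries, and 2 did in the fit of 8 libraries described next.

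In the fit of all 48 libraries by edgeR's quasi-likelihood test, 1247 of 22252 genes tested (5.6%) differed between infested plants at 4 d and at 24 h at an adjusted p under 0.05. Of these, 706 were higher at 4 d (3.17%) and 541 lower (2.43%). At least 2-fold, 131 were higher (0.589%) and 114 lower (0.512%). This count depended on the fit and on single libraries. A fit of only the 8 libraries compared, in which the spread comes from infested plants of these times alone, called 1380 higher (6.2%) and 1463 lower (6.57%), and 1166 of its 2843 calls were shared in gene and direction with the fit of 48. Without replicate 1 or replicate 4 of 24 h, the higher calls fell to 422 and 371 and the lower calls to 273 and 288. Lower calls also fell to 350, 286, 308 and 352 without replicates 1, 2, 3 and 4 of 4 d, and higher calls to 446 and 466 without replicates 2 and 4. At least 2-fold, the 114 lower calls fell to 62 without replicate 1 of 24 h and to 70 without replicate 3 of 4 d. In what follows, counts are from the fit of 48 libraries, and those of the fit of 8 libraries are named as such. Over all genes, 3.17% were higher and 2.43% lower with time in infested plants, or 6.2% and 6.57% in the fit of 8. List counts below stand beside these shares.

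Plants without mites also changed over the same days, and which kind of plant had more calls depended on the fit. In control plants 2097 genes differed between 4 d and 24 h (9.42%), 1307 of them higher (5.87%) and 790 lower (3.55%), and in a fit of the 8 control libraries alone 1542 were higher and 1052 lower. Counted by groups that do not overlap, 8.93% of all genes lay higher and 7.91% lower at 4 d in control plants, against 9.46% and 8.62% in infested plants. Of the 706 genes that rose in infested plants, 198 also rose in control plants, and of the 541 that fell, 129 also fell. A further 66 fell in infested plants and rose in control plants, and 3 did the opposite. Another 1043 genes rose in control plants and were not called in infested plants. Tested as the difference between both changes, 748 genes (3.36%) changed unequally, 617 with the lower change under infestation (2.77%) and 131 with the higher (0.589%). At least 2-fold, 438 had the lower change (1.97%) and 34 the higher (0.153%). Without the 3 control libraries named above and with no fold minimum, 343 had the lower change and 55 the higher, in place of 617 and 131. In control plants 593 genes were then higher and 259 lower. Without replicate 1 of infested plants at 24 h, the 131 fell to 83.

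**Figure D1:**
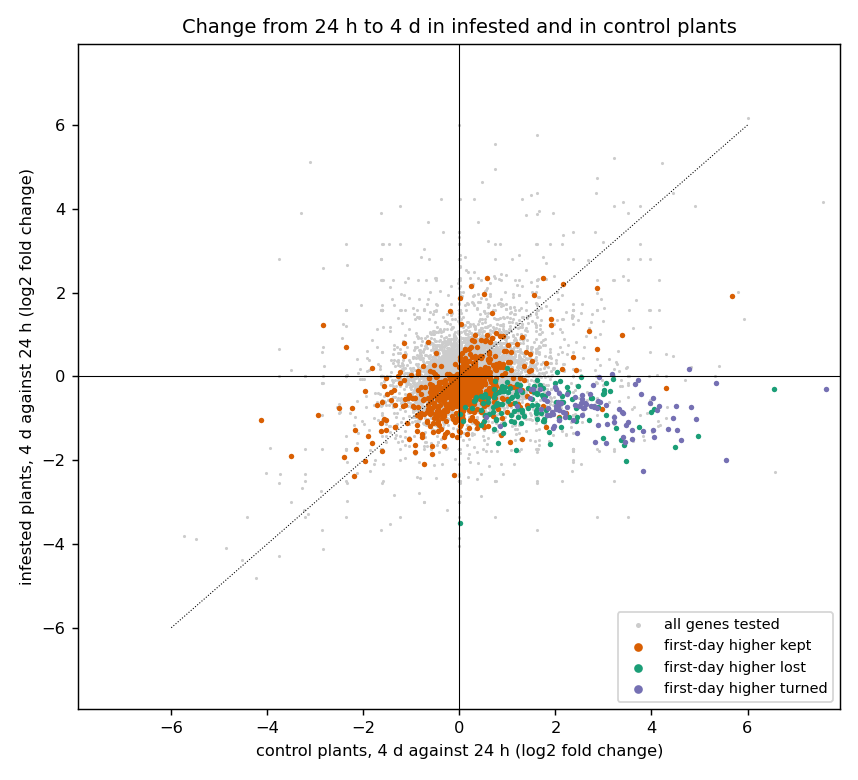
Each point is a gene, with the log2 fold change from 24 h to 4 d in control plants on the x axis and in infested plants on the y axis, 4 libraries a group, and the dotted line marking equal change. First-day higher genes that were kept at 4 d (orange, 763) have a median of 0.09 on the x axis and -0.32 on the y axis, where 582 of them lie below 0. Most of those lost (green, 135) or turned (purple, 96) lie to the right, where control plants rose.

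Defensins of the ERF branch were among the largest rises in infested plants. PDF1.2 (AT5G44420), a small antifungal protein, stood at 1.88, 7.37, 2.84 and 1.11 CPM at 24 h and at 40.8, 72.5, 24.6 and 66.1 CPM at 4 d. Every library at 4 d was above every library at 24 h, as held for 9.46% of all genes tested. The rise was 15.5-fold (log2 3.95 ± 0.78 SE, adjusted p = 0.0015 by edgeR's quasi-likelihood test). Control plants stood at 0.803, 2.5, 5.73 and 0.29 CPM at 24 h and at 1.55, 0, 0 and 27.9 CPM at 4 d, so that 1 control library, replicate 4 of 4 d, reached the infested range. That control library was also the highest of its group in the summed MYC-branch genes. The difference between infested and control plants in this change did not pass the test (log2 2.3 ± 1.17, adjusted p = 0.43). It did with the 3 high control libraries left out (adjusted p = 0.00044), where PDF1.2 was at 0 in both remaining control libraries of 4 d, so that no fold is given. That repeat took out the control library with 27.9 CPM, so its call is no separate support. PDF1.2c rose from 2.01 ± 1.81 to 29 ± 15.19 CPM (SD, n = 4, adjusted p = 0.0024), PDF1.3 from 0.341 ± 0.109 to 7.28 ± 5 (adjusted p = 0.0095), and PDF1.2b from 1.01 ± 0.615 to 7.32 ± 3.02 (adjusted p = 0.0085, or 0.089 by DESeq2, within a range of up to 0.089 over all alternatives). These 4 genes are near-identical copies, so reads may have been split or lost between them. At 24 h infested and control plants did not differ in PDF1.2 past the threshold (log2 0.47 ± 0.94, adjusted p = 0.8), and at 4 d infested plants were higher (log2 2.77 ± 0.71, adjusted p = 0.0045). Of the 9 tested genes of this branch, 5 rose (3.17% of all genes did) and none fell in infested plants, with a median log2 change of 0.85 beside 0 over all genes tested. The fifth was the basic chitinase CHI-B, from 2.53 to 4.55 CPM, whose call did not hold under 9 of 14 alternatives. ORA59, the factor that leads the branch, stood at 2.2 ± 0.414 and 3.27 ± 0.973 CPM (adjusted p = 0.52). PDF1.2 went on to 109 CPM at 7 d in infested plants and was at 3.83 CPM at 12 d.

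The 250 bases before the annotated start of these defensin genes are printed because these genes were among the largest rises. GCCGCC is the letter set that ERF factors are known to bind. Capitals mark GCCGCC, the WRKY core TTGAC and the abscisic acid-related letters ACGTG on either strand. They were read from the TAIR10.1 genome, PDF1.2 at chr5:17907639-17907888 on the minus strand, PDF1.2b at chr2:11088873-11089122 on the plus strand, PDF1.2c at chr5:17909508-17909757 on the minus strand and PDF1.3 at chr2:11087030-11087279 on the plus strand.
PDF1.2: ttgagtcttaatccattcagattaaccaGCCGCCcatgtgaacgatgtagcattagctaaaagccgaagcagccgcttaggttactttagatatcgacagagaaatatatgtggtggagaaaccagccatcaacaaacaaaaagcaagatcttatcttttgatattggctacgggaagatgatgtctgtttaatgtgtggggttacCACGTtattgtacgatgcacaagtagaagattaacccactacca
PDF1.2b: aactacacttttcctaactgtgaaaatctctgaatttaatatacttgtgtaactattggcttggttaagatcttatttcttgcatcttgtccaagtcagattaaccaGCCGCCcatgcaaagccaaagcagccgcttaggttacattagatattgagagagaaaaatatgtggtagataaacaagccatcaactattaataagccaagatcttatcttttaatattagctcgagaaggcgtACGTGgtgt
PDF1.2c: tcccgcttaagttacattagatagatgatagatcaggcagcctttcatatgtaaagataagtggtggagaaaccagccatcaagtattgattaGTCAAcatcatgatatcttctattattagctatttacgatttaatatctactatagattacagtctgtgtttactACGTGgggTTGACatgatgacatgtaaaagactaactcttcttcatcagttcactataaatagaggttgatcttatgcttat
PDF1.3: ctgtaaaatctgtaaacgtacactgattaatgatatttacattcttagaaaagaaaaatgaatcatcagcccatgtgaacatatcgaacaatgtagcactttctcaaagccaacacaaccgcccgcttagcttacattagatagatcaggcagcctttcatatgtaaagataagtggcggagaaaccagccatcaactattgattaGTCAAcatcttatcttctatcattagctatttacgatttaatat
PDF1.2 and PDF1.2b hold GCCGCC in this window, and PDF1.2c and PDF1.3 do not, and all 4 rose. Among all 21919 tested genes with a start on the nuclear chromosomes, 1.95% hold GCCGCC in the same window.

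Other large rises were shared with plants that had no mites. The cell wall protein precursor AT2G20870 stood at 0.251, 0.441, 0.544 and 0.309 CPM at 24 h and at 7, 11.4, 6.02 and 3.53 at 4 d in infested plants, a rise of 17.8-fold (log2 4.15 ± 0.46, adjusted p = 8.8e-08). Control plants rose from 0.765 ± 0.389 to 8.14 ± 4.29 CPM (log2 3.4 ± 0.39), and both kinds of plant reached about the same range, which overlapped. The AP2-type factor gene AT1G64380 rose from 1.98 to 10.4 CPM in infested and from 1.83 to 19.5 CPM in control plants. MES18, a methyl esterase, rose from 1.93 to 9.66 CPM and in control plants from 3.63 to 12.7 CPM. GASA5, a gibberellin-regulated peptide, rose from 2.06 to 7.13 CPM, and in control plants from 1.7 to 4.45. The floral organ factor SEP1 rose from 1.68 to 5.47 CPM in infested and from 1.92 to 5.88 CPM in control plants. For none of these 5 did the difference between both changes pass the test.

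Further rises came on top of a first-day rise or had no called counterpart in control plants. The pectin lyase-like gene AT3G27400 stood at 22.3, 20.9, 21.8 and 15.08 CPM at 24 h and at 59.8, 55.3, 53.6 and 68.2 CPM at 4 d, with no overlap. It rose 2.95-fold (log2 1.56 ± 0.16, adjusted p = 1e-08), while control plants stood at 6.94 ± 1.27 and 6.09 ± 0.961 CPM, and the difference between both changes passed the test (log2 1.75 ± 0.24, adjusted p = 1.7e-06). The gene was 1.53 above control on the log2 scale at 24 h and 3.28 at 4 d. AT5G52390, annotated as a PAR1 protein, rose from 9.12 ± 0.969 to 35.2 ± 7.06 CPM (log2 1.95 ± 0.41, adjusted p = 0.0028). Control plants stood at 0.451 ± 0.413 and 1.33 ± 1.09 CPM, so their mean was also higher at 4 d, at a low level. DXPS1, a deoxyxylulose phosphate synthase-like gene of the volatile list, rose from 1.36 to 5.01 CPM, and was near 0 in control plants at both times. Its call was lost by DESeq2 and without replicate 3 or 4 of 24 h or replicate 2, 3 or 4 of 4 d. The myrosinases TGG1 and TGG2, which release toxic products from glucosinolates, rose from 3230 ± 179 to 4610 ± 435 CPM and from 2380 ± 163 to 3970 ± 428 CPM. Control plants did not rise in either (TGG1 3510 and 3050 CPM, TGG2 2280 and 2120 CPM), and the difference between both changes passed the test for TGG1 (adjusted p = 0.0073) and TGG2 (adjusted p = 0.0016).

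**Figure D2:**
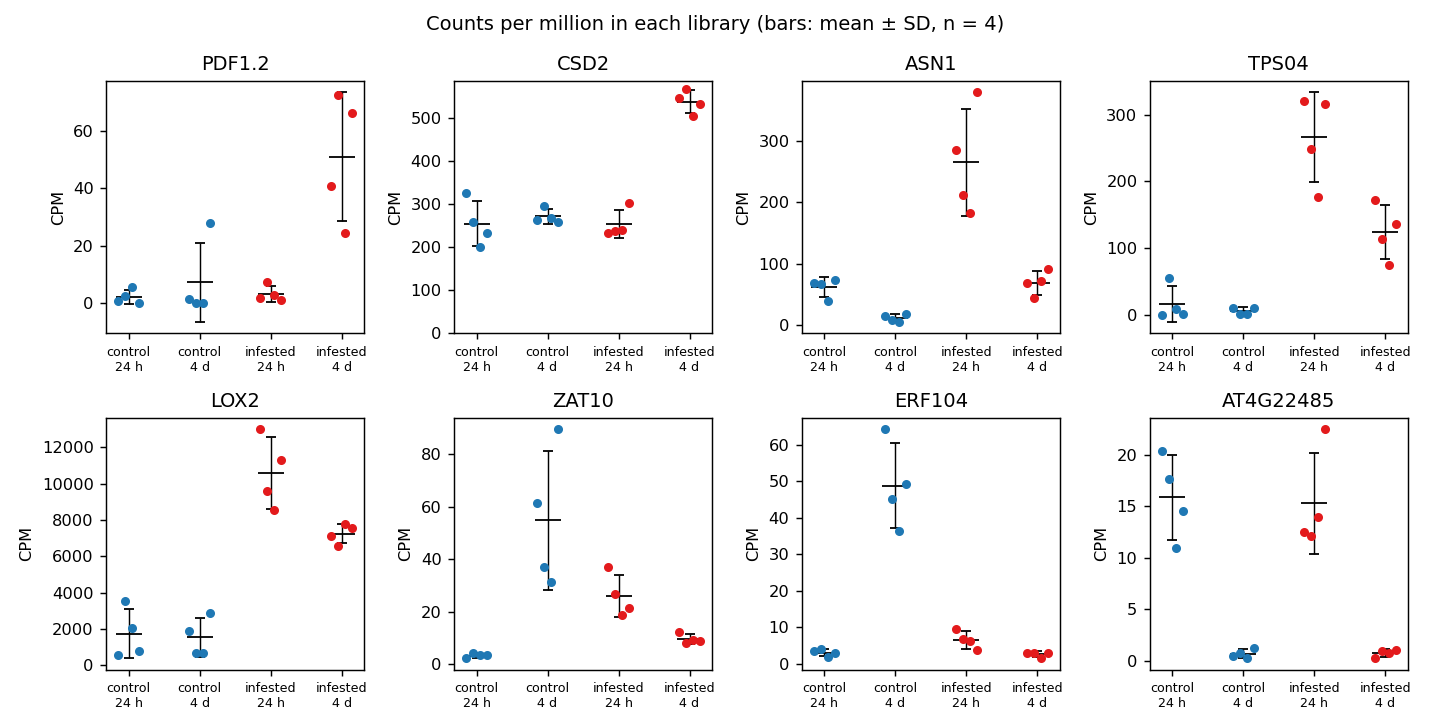
CPM of 8 genes in each of the 4 libraries of control and infested plants at 24 h and 4 d (dots), with the mean and SD as bars. PDF1.2 and CSD2 were higher at 4 d than at 24 h in every infested library, ASN1, TPS04, LOX2, ZAT10, ERF104 and AT4G22485 were lower in every one, and ZAT10 and ERF104 were high in control plants at 4 d.

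The largest falls were likewise divided. AT4G22485, AT4G22505 and AT4G22513, neighbouring genes annotated as lipid-transfer-type proteins, fell the same way in plants without mites. AT4G22485 stood at 12.5, 12.095, 14 and 22.5 CPM at 24 h and at 0.22, 0.919, 0.702 and 1.05 CPM at 4 d, a fall of 20.9-fold (log2 -4.38 ± 0.44, adjusted p = 1.8e-08). The control plants went from 15.9 ± 4.13 to 0.673 ± 0.429 CPM. Reads of these similar genes may have been shared among them. ASN1, the dark-inducible asparagine synthetase, stood at 285, 212, 182 and 379 CPM at 24 h and at 68.4, 44, 72.6 and 91.9 CPM at 4 d, 3.82-fold lower (log2 -1.93 ± 0.3, adjusted p = 4.6e-05). Control plants fell from 61.9 ± 15.7 to 11.7 ± 5.76 CPM, so that infested plants stayed above control at both times, by 2.1 ± 0.3 at 24 h and 2.57 ± 0.32 at 4 d on the log2 scale. NCED3, which makes a precursor of abscisic acid, fell from 27.2 ± 6.4 to 9.58 ± 0.335 CPM (log2 -1.5 ± 0.33, adjusted p = 0.004), whereas control plants rose from 23.7 ± 3.65 to 56.7 ± 8.99 CPM (adjusted p = 0.0049, or 0.12 with the 3 high control libraries left out). HSPRO2, a nematode-resistance homologue, fell from 126 ± 46.3 to 40.6 ± 3.28 CPM (adjusted p = 0.00029), and control plants rose from 83.3 ± 18.6 to 261 ± 63.4 CPM. For both genes the difference between the changes passed the test (adjusted p = 5.6e-05 for NCED3 and 2.7e-07 for HSPRO2, and with the 3 libraries left out 0.002 and 2.9e-05). For the remaining genes of this paragraph only infested plants are given, so their falls are not set against control plants. XTH18, a wall-modifying xyloglucan hydrolase, fell from 17.9 ± 6.82 to 5.96 ± 1.13 CPM (adjusted p = 0.00012), and MPL1, a lipase, from 11.9 ± 2.88 to 3.96 ± 0.943 (adjusted p = 0.0046). TPS10, a terpene synthase, stood at 19.8 ± 8.17 and 6.36 ± 2.78 CPM (adjusted p = 0.045), a call that 9 of 14 alternatives did not give, among them leaving out replicate 1, 2 or 4 of 24 h or replicate 2, 3 or 4 of 4 d. CML39, a calmodulin-like gene, fell from 31.3 ± 14.5 to 6.01 ± 1.68 CPM (adjusted p = 0.0094, lost by DESeq2 and without replicate 1 of 24 h).

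To see what became of the first-day response, genes at least 2-fold from control at 24 h were followed to 4 d. At 24 h 1309 genes were higher (5.88%) and 224 lower (1.01%) in infested than in control plants at this size. A gene was called kept when it differed from control at 4 d in the same direction, turned when it differed in the opposite one, and lost when it did not differ and its change was unequal in infested and control plants, towards control. The rest were left undecided. Of the 1309 higher genes, 763 were kept (58.3%), 135 lost (10.3%) and 96 turned (7.33%), and the remaining 315 were undecided. Of the 224 lower genes, 112 were kept (50%), 10 lost, 1 turned and 101 undecided. Beside this, 8.68% of all genes tested were higher and 7.68% lower than control at 4 d. The 24 h and 4 d contrasts share no library, but infested plants at 4 d against 24 h share libraries with both, so the class itself is no evidence on that change. Against control plants at 7 d in place of 4 d, 611 of the 1309 were higher (46.7%) and 171 lower, and against control plants at 30 min 829 were higher (63.3%) and 105 lower. Without the 3 control libraries named above, 735 of 1335 were kept (55.1%), 99 lost and 51 turned.

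**Figure D3:**
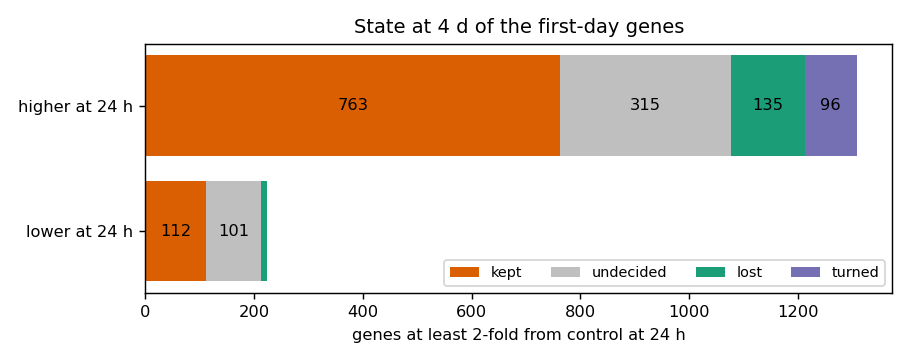
Bars give the number of genes at least 2-fold above (upper bar) or below (lower bar) control at 24 h, divided by their state at 4 d. Kept genes are the longest segment in both bars, with 763 and 112, and the lower bar ends in 10 lost genes and 1 turned gene.

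Kept genes were defined by their difference from control at 4 d, so their level then is in part set by that rule. Median log2 differences from control at 4 d were 0.68 for undecided, -0.05 for lost and -1.61 for turned higher genes. The 763 kept higher genes had a median log2 difference from control of 2.08 at 24 h and 1.67 at 4 d, and 608 of them were still at least 2-fold higher. Taken with genes above 2-fold at 4 d alone, these 608 made up 46.4% of the genes 2-fold higher at 24 h and 81.1% of those 2-fold higher at 4 d. Among lower genes the order was the other way, with 61 genes making up 27.2% of those 2-fold lower at 24 h and 15.9% of the 384 at 4 d. From 24 h to 4 d within infested plants, the median log2 change of the 763 kept higher genes was -0.32, and 582 of them (76.3%) lay lower. By test, 84 of them were lower and 17 higher, and in the fit of 8 libraries 194 and 32. In control plants the median change of the same genes was 0.09. The lost and turned genes differed in what control plants did. Of the 135 lost genes, 36 were called lower in infested plants and 103 were called higher in control plants, with medians of -0.63 and 1.35. Of the 96 turned genes, 23 were called lower in infested plants, 56 in the fit of 8 libraries, and all 96 were called higher in control plants, with medians of -0.74 and 2.68. Both classes use the control libraries of 4 d in their definition.

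**Figure D4:**
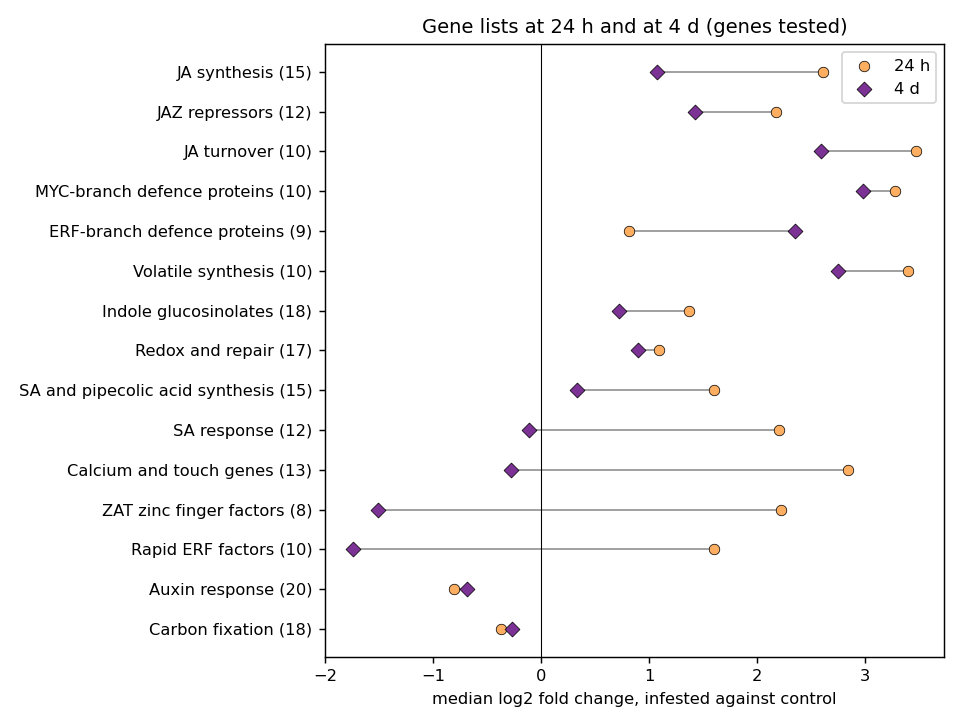
Median log2 fold change of infested against control plants for 15 gene lists, at 24 h (circles) and at 4 d (diamonds), with the number of genes tested in brackets. Lists of JA, volatile and redox genes stay above 1 or close to it, the ERF-branch list goes from 0.81 to 2.35, and the rapid ERF and ZAT lists go from 1.6 and 2.22 to -1.74 and -1.51.

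Among the genes that make JA, the first-day rise was kept in part. All 15 tested genes were higher than control at 24 h, as 13% of all genes were, with a median of 2.61 on the log2 scale. At 4 d 9 were, beside 8.68% of all genes, with a median of 1.07. With the 3 high control libraries left out, 14 were higher at 24 h (all genes 12.35%) and 12 at 4 d (all genes 6.606%), with a median of 1.63 at 4 d, and of the 2-fold genes 11 were kept and none lost, against 6 and 3 with all libraries. LOX2, the plastid lipoxygenase of the main wound route, stood at 13000, 9580, 8560 and 11300 CPM at 24 h and at 7120, 6560, 7790 and 7540 CPM at 4 d. All 4 d libraries were below all 24 h libraries, yet the difference did not pass the test in the fit of 48 libraries (log2 -0.55 ± 0.4, adjusted p = 0.48). It did in the fit of 8 (adjusted p = 0.031, the range over all alternatives being 0.031 to 0.66). Control plants stood at 1740 ± 1350 and 1540 ± 1060 CPM, with LOX2 at 3540 CPM in control replicate 2 of 24 h. AOS stood at 1970 ± 479 and 1280 ± 111 CPM, with no overlap (adjusted p = 0.19), and AOC2 at 1150 ± 341 and 629 ± 80.1 CPM, with no overlap (adjusted p = 0.23). Across the list, none was called from 24 h to 4 d in infested plants and 6 were called lower in the fit of 8, with a median log2 change of -0.6, and 8 of 15 lay without overlap below, beside 8.62% of all genes. LOX4, a further wound lipoxygenase, was counted as lost: infested plants stood at 183 ± 43.9 and 120 ± 18.7 CPM while control plants rose from 18.8 ± 20.9 to 82.3 ± 54.1 CPM (adjusted p = 0.0037). Its control values at 4 d were 101, 41.4, 36.5 and 151 CPM, high in the libraries that were high in MYC-branch genes. With the 3 high control libraries left out LOX4 was kept, at 1.63 ± 0.46 above control at 4 d (adjusted p = 0.015). Whether LOX4 counts as lost thus rests on those libraries.

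Most repressors and enzymes that remove JA also stayed above control. Of 12 JAZ genes, 10 were higher than control at 24 h (all genes 13%) and 8 at 4 d (all genes 8.68%), 7 of them kept. With the 3 high control libraries left out, 10 were higher at both times and 10 kept. JAZ10 stood at 154, 106, 88.3 and 149 CPM at 24 h and at 96.5, 79.2, 94 and 93.9 CPM at 4 d, overlapping (adjusted p = 0.69), and control plants were at 9.53 ± 9.91 and 10.7 ± 12 CPM. JAZ1 was undecided, with 113 ± 25.6 and 75.1 ± 9.96 CPM in infested plants and 44.2, 10, 9.39 and 123 CPM in the control libraries of 4 d. It was kept with the 3 high control libraries left out. None of the JAZ genes was called from 24 h to 4 d in infested plants, and 4 were called lower in the fit of 8. All 10 genes of JA turnover were higher than control at both times and all 10 were kept. One member was called lower from 24 h to 4 d, and 4 were in the fit of 8. It was ST2A, a sulfotransferase acting on hydroxylated JA, which fell from 50.8 ± 17.6 to 18.6 ± 5.34 CPM (adjusted p = 0.036), a call lost by DESeq2 and without replicate 1 or 4 of 24 h or replicate 2, 3 or 4 of 4 d. CYP94C1, which oxidises the active conjugate, stood at 28.5 ± 5.75 and 20.2 ± 4.38 CPM (adjusted p = 0.5).

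Defence proteins downstream of MYC factors stayed high. Of 10 genes, 9 were higher than control at both times (all genes 13% and 8.68%), and all 9 were kept. None was called from 24 h to 4 d, while 2 were called lower in the fit of 8. All 9 were also kept with the 3 high control libraries left out, but those libraries were chosen by this same list. VSP2, a vegetative storage protein and acid phosphatase, stood at 6130, 4700, 3560 and 4880 CPM at 24 h and at 3780, 3070, 4090 and 3580 CPM at 4 d. The groups overlapped (log2 -0.41 ± 0.46, adjusted p = 0.68), and infested plants were 2.37 ± 0.49 above control at 24 h and 2.34 ± 0.49 at 4 d on the log2 scale, or 3.02 ± 0.44 and 3.67 ± 0.55 with the 3 high control libraries left out. VSP2 then stood at 1330 CPM at 7 d. Among 10 regulators 1 was called from 24 h to 4 d, and 3 were in the fit of 8: NAC055, a JA-induced factor, was lost and fell from 3.82 ± 1.55 to 1.48 ± 0.44 CPM (log2 -1.36 ± 0.32, adjusted p = 0.0063). Volatile synthesis had 8 of 10 genes higher than control at both times (all genes 13% and 8.68%), all of them kept. TPS04, the geranyllinalool synthase of homoterpene release, stood at 320, 249, 177 and 316 CPM at 24 h and at 172, 113, 73.7 and 136 CPM at 4 d, without overlap (log2 -1.1 ± 0.76, adjusted p = 0.45). CYP82G1, the next enzyme of that route, stood at 20.4 ± 4.33 and 17.1 ± 3.45 CPM, against 0.603 and 0.359 CPM in control plants.

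The genes kept at the greatest distance from control were not JA enzymes. MSRB7, a methionine sulfoxide reductase, stood at 35.7, 21.9, 16.3 and 25.9 CPM at 24 h and at 14.4, 16.6, 5.66 and 12.09 CPM at 4 d. Control libraries held at most 1.17 CPM at either time, and the log2 difference from control was 6.22 ± 0.73 and 6.7 ± 0.85. MDHAR, a monodehydroascorbate reductase, stood at 113 ± 31 and 46.4 ± 15.6 CPM and was 6.11 and 6.37 above control. Both lay lower at 4 d without a call in infested plants (adjusted p = 0.25 and 0.079). MSRB9, a relative of MSRB7, fell from 69.7 ± 17.7 to 25.5 ± 5.04 CPM (adjusted p = 0.0044). EARLI1, a lipid-transfer-type protein of systemic immunity, stood at 45.9 ± 14.9 and 47.2 ± 12.21 CPM against 1.57 and 1.38 CPM in control plants. CYP81D11, a detoxification enzyme, stood at 18.6 ± 5.74 and 19.3 ± 6.14 CPM, against 0.886 and 0.632 CPM. Of the 4 genes of the EARLI1 and AZI cluster, EARLI1 was the one not called with time in infested plants. The other 3 were called lower (all genes 2.43%), or 1 in the fit of 8 (6.57%), and the list median was -1.18. AT4G12490 (adjusted p = 0.04) and AT4G12500 (adjusted p = 0.046) lost their calls under 10 and 7 of 14 alternatives. AZI1, the neighbour of EARLI1, was lost. AZI1 fell from 8.69 ± 7.02 to 2.57 ± 0.728 CPM (adjusted p = 0.022), a call that was absent in the fit of 8 and without replicate 2 of 24 h or replicate 1, 2 or 3 of 4 d, with 18.3 CPM in replicate 2 of 24 h.

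Indole glucosinolate genes, which make tryptophan-derived defence compounds, stayed above control. Of 18 genes, 15 were higher at 24 h (all genes 13%), and at 4 d 13 were higher (8.68%) and 2 lower (7.68%), and 10 of the 2-fold genes were kept. CYP79B3, which opens the pathway, stood at 702 ± 127 and 516 ± 36.5 CPM against 114 ± 70.4 and 136 ± 66.5 CPM in control plants, with no overlap between infested times (adjusted p = 0.43). MYB34, a regulator, stood at 143 ± 32.6 and 104 ± 9.33 CPM (adjusted p = 0.26) and was kept. MYB51, a regulator of the same pathway, stood at 6.05 ± 1.12 and 5.36 ± 0.819 CPM in infested plants while control plants rose from 5.43 ± 0.855 to 18.3 ± 2.35 CPM (adjusted p = 4.8e-08). Infested plants were thus lower than control in MYB51 at 4 d (log2 -1.77 ± 0.21, adjusted p = 2.2e-08). GSTF10 was the 1 member called lower in infested plants, against 5 in the fit of 8, from 245 to 190 CPM (adjusted p = 0.021), and without replicate 1 or 4 of 24 h or replicate 1, 3 or 4 of 4 d it was no longer called. MYB28, which controls aliphatic glucosinolates, rose from 59.2 ± 5.66 to 81.6 ± 4.97 CPM (adjusted p = 0.0013).

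Rapid factors were above control in part at 24 h, and at 4 d 5 of 10 ERF and 5 of 8 ZAT genes were below it. ERF104, a wound and pathogen-responsive factor, stood at 9.34, 6.68, 6.11 and 3.59 CPM in infested plants at 24 h and at 2.92, 2.96, 1.45 and 2.98 CPM at 4 d. Control libraries stood at 3.5, 3.89, 1.86 and 2.9 CPM at 24 h and at 64.2, 45.1, 36.3 and 49.2 CPM at 4 d. The lower level in infested plants at 4 d did not pass the test in the fit of 48 libraries (log2 -1.32 ± 0.42, adjusted p = 0.056), while control plants rose by 4 ± 0.39 on the log2 scale (adjusted p = 1.2e-09). Infested plants stood 1.08 ± 0.42 above control at 24 h, short of the threshold (adjusted p = 0.056), and 4.24 ± 0.4 below it at 4 d (log2 -4.24, adjusted p = 3.9e-10). Over the 6 times, control plants averaged 2.19 CPM at 30 min, 3.03 at 24 h, 48.7 at 4 d, 26.5 at 7 d, 32.1 at 12 d and 20.2 at 15 d, and infested plants 14.7 at 30 min, 6.43 at 24 h, 2.58 at 4 d, 8.01 at 7 d, 12.15 at 12 d and 3.7 at 15 d. All 10 rapid ERF genes rose in control plants, as 5.87% of all genes did, none was called in infested plants, and 9 were called lower in the fit of 8. Against control, 6 of the 10 were higher at 24 h (all genes 13%), and at 4 d 5 were lower (all genes 7.68%) and none higher. With the 3 high control libraries left out, 6 rose in control plants, 7 were higher at 24 h and 5 lower at 4 d, and the median at 4 d was -0.34 on the log2 scale in place of -1.74.

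ZAT10, a zinc finger repressor of stress responses, was called turned. It stood at 37.2, 26.7, 18.8 and 21.3 CPM in infested plants at 24 h and at 12.18, 8.02, 9.32 and 8.72 CPM at 4 d, and fell 2.72-fold (log2 -1.44 ± 0.4, adjusted p = 0.025). The call was lost without replicate 1 of 24 h or replicate 2, 3 or 4 of 4 d. Control libraries rose from 3.27 ± 0.807 to 54.8 ± 26.6 CPM, the highest being replicate 4 of 4 d with 89.6 CPM and the lowest replicate 3 with 31.3, still above every infested library of 4 d. WRKY33, a regulator of camalexin synthesis, stood at 44.5 ± 6.93 and 25.9 ± 3.62 CPM in infested plants (adjusted p = 0.074) and rose from 16.1 ± 3.35 to 160 ± 53.8 CPM in control plants. WRKY46 fell from 22 ± 2.58 to 9.87 ± 2.78 CPM (adjusted p = 0.01, lost without replicate 3 of 4 d), and BAP1, an inhibitor of cell death, from 4.51 ± 0.876 to 1.51 ± 0.276 CPM (adjusted p = 0.0055). WRKY46 and BAP1 were lost in place of turned with the 3 high control libraries left out. Of 10 WRKY genes 7 were higher than control at 24 h (all genes 13%), and at 4 d 3 were higher (8.68%) and 5 lower (7.68%). With the 3 high control libraries left out, these were 6, 2 and 4. From 24 h to 4 d 2 of the WRKY genes fell in infested plants (all genes 2.43%), and 5 in the fit of 8 (6.57%). In control plants 7 rose (5.87%), or 5 with the 3 high control libraries left out (2.665%). Of 8 ZAT genes 7 were higher than control at 24 h (all genes 13%), and at 4 d 5 were lower (all genes 7.68%) and none higher, or 4 lower with the 3 high control libraries left out. From 24 h to 4 d 2 of them fell in infested plants, 4 in the fit of 8, and 6 rose in control plants. Of 13 calcium and touch genes 11 were higher at 24 h (all genes 13%), and at 4 d 2 were higher (8.68%) and 5 lower (7.68%). With the 3 high control libraries left out, these were 4 and 2. From 24 h to 4 d 3 of them fell in infested plants, 10 in the fit of 8, and 8 rose in control plants. CML38, a calmodulin-like sensor of that list, fell from 22.5 ± 8.2 to 7.39 ± 2.19 CPM (adjusted p = 0.014), a call lost without replicate 1 of 24 h or replicate 2 or 3 of 4 d. CML38 was kept in place of lost with the 3 high control libraries left out.

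**Figure D5:**
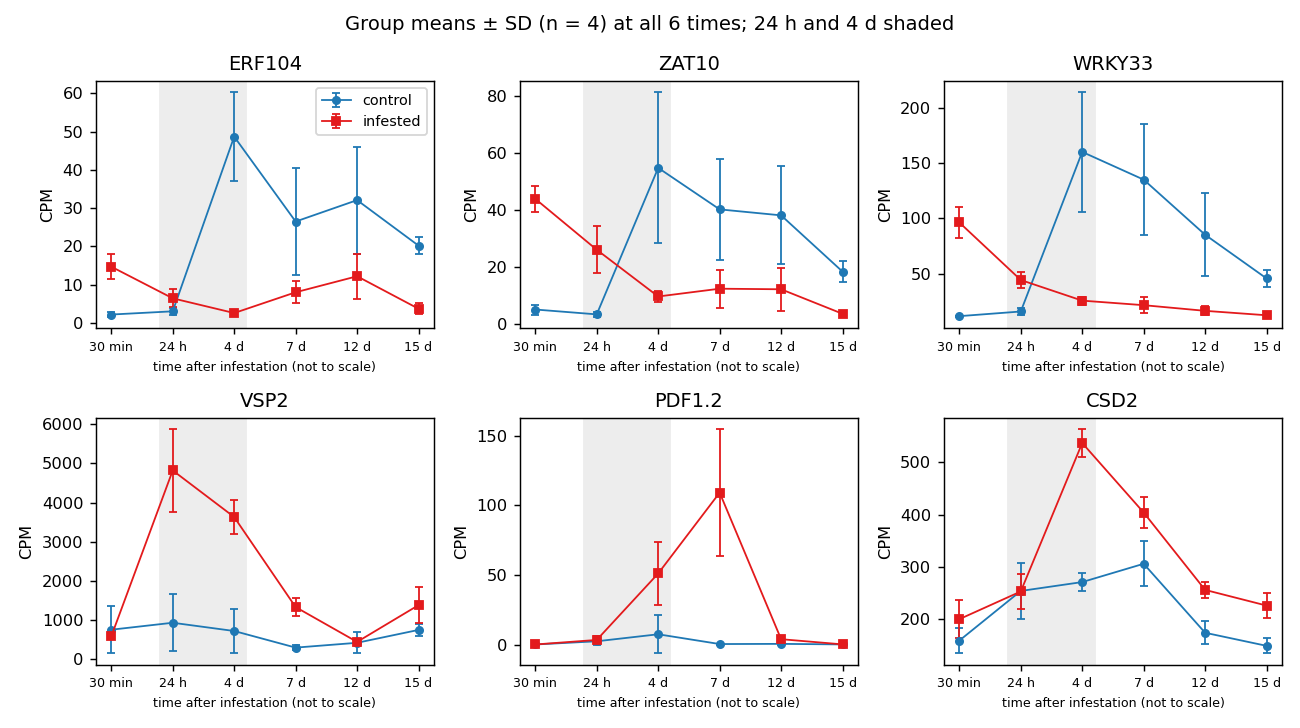
Mean CPM ± SD of 4 libraries for control (circles) and infested plants (squares) at all 6 times, with 24 h and 4 d shaded and the times not to scale. ERF104, ZAT10 and WRKY33 are low in control plants up to 24 h and high from 4 d on, VSP2 is at 1330 CPM in infested plants at 7 d, PDF1.2 peaks at 109 CPM at 7 d, and CSD2 peaks at 537 CPM at 4 d.

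Salicylic acid genes were mostly above control at 24 h and divided at 4 d. In SA and pipecolic acid synthesis 12 of 15 genes were higher than control at 24 h (all genes 13%). At 4 d 3 were higher (8.68%) and 3 lower (7.68%), or 2 and 2 with the 3 high control libraries left out. From 24 h to 4 d 2 of the 15 fell in infested plants (all genes 2.43%), and 4 in the fit of 8 (6.57%). In control plants 6 rose (5.87%), or 4 with the 3 high control libraries left out (2.665%). In the SA response list 11 of 12 were higher (all genes 13%) and 1 lower at 24 h, and at 4 d 2 were higher and 4 lower, or 2 and 3 with the 3 high control libraries left out, where 3 in place of 6 rose in control plants. From 24 h to 4 d 2 of these fell in infested plants, 3 in the fit of 8, and 6 rose in control plants. These lists were not tested against the JA lists. WRKY70, a factor that links both hormones, stood at 39.9, 60.3, 45.1 and 37 CPM in infested plants at 24 h and at 29.2, 36.9, 11.9 and 36.4 CPM at 4 d (adjusted p = 0.15). Control plants rose from 13.5 ± 3.97 to 112 ± 28.6 CPM (adjusted p = 1.1e-09). SARD1, which drives SA synthesis, fell from 8.52 ± 1.57 to 4.13 ± 1.73 CPM (adjusted p = 0.035) and rose in control plants from 1.58 ± 0.362 to 8.24 ± 2.14 CPM. EDS5, the SA exporter of the plastid, fell from 37.9 ± 7.88 to 21.5 ± 2.4 CPM (adjusted p = 0.042) and was kept above control. The SARD1 call was lost without replicate 2, 3 or 4 of 24 h or 1, 3 or 4 of 4 d, and the EDS5 call without replicate 1, 2 or 4 of 24 h or any replicate of 4 d. SARD1 was lost in place of turned with the 3 high control libraries left out. PR2, a glucanase, was kept, at 182 ± 32.8 and 101 ± 41.3 CPM against 5.99 and 8.24 CPM in control plants. PR1 scattered from 0.989 to 50.3 CPM at 24 h and from 2.06 to 24.295 CPM at 4 d, and was undecided.

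Auxin response genes were mostly below control. Of 20 auxin response genes 17 were lower than control at 24 h, where 10.2% of all genes were, and 12 at 4 d, where 7.68% were, with 1 and 2 higher. With time, 13 fell in control plants (all genes 3.55%), and 4 with the 3 high control libraries left out (all genes 1.164%). In infested plants 4 fell (2.43%), and 7 in the fit of 8 (6.57%). IAA29, an auxin-induced repressor of the shade response, stood at 1.88, 1.95, 2 and 2.91 CPM in infested plants at 24 h and at 1.98, 0.97, 2.71 and 2.21 CPM at 4 d. Control plants went from 15.9 ± 3.28 to 7.48 ± 2.53 CPM (adjusted p = 0.0031, or 0.12 with the 3 high control libraries left out), so the log2 difference was -2.86 ± 0.29 at 24 h and -1.92 ± 0.29 at 4 d. XTH17, a wall enzyme, stood at 4.08 and 3.27 CPM against 17.4 and 14.6 CPM in control plants, and HFR1, a factor of shade avoidance, at 4.19 and 2.96 CPM against 15.8 and 12.28 CPM. IAA1, an early auxin gene, fell from 30.5 ± 3.75 to 17.1 ± 1.52 CPM (adjusted p = 4.1e-05) while control plants stood at 44.4 ± 5.18 and 50.6 ± 6.18 CPM, and the difference of the changes passed the test (adjusted p = 0.00011). The 112 kept lower genes had a median log2 difference from control of -1.34 at 24 h and -1.11 at 4 d, and 20 of them rose from 24 h to 4 d in infested plants.

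By the same rules 7 genes were at least 2-fold higher than control at 4 d without having been called at 24 h, with an unequal change, and 95 were lower. Of these 95, 87 were called higher in control plants with time and 8 were called lower in infested plants, 23 in the fit of 8. ERF5, a rapid factor, was among the 95: it stood at 5.58 ± 0.851 and 3.54 ± 0.273 CPM in infested plants and rose from 3.17 ± 0.438 to 50.2 ± 11.9 CPM in control plants. Of the 7, AT4G01390, a TRAF-like gene, rose from 1.88 ± 0.288 to 6.45 ± 1.16 CPM in infested plants (log2 1.78 ± 0.29, adjusted p = 6.4e-05) with control plants at 2.62 and 3.16 CPM. The 1 gene that turned from lower to higher was HISN6B, named after its values were seen: infested libraries of 4 d stood at 0.0551, 9.85, 0 and 3.92 CPM and control libraries of 24 h at 0.0574, 3.2, 0.265 and 0.984 CPM. It was high in single libraries only, and it was not called turned without control replicate 2 of 24 h.

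CSD2 and CCS, genes of copper enzyme supply, rose under infestation beyond the control change. CSD2, the chloroplast copper/zinc superoxide dismutase, stood at 233, 238, 239 and 303 CPM at 24 h and at 547, 567, 503 and 533 CPM at 4 d. All 4 libraries of 4 d were above those of 24 h, and the rise was 2.12-fold (log2 1.09 ± 0.12, adjusted p = 6.4e-08). Control plants stood at 254 ± 52.8 and 271 ± 16.8 CPM, and the difference between both changes passed the test (log2 0.99 ± 0.17, adjusted p = 9e-05). CCS, the chaperone that loads copper into these enzymes, rose from 77.4 ± 9.36 to 133 ± 7.9 CPM (log2 0.78 ± 0.12, adjusted p = 2.1e-05), while control plants stood at 85.2 ± 16.9 and 72.1 ± 4.73 CPM. CSD1, the cytosolic enzyme, stood at 263 ± 7.89 and 334 ± 12.36 CPM without overlap (adjusted p = 0.071, and 0.00033 in the fit of 8, within a range of 0.00033 to 0.16). The precursor of miR398b, a microRNA known to target all of them, listed as MIR398b, had 3.7, 4.09, 5.38 and 3.15 CPM at 24 h and 1.71, 1.63, 1.95 and 1.66 CPM at 4 d. It fell 2.34-fold (log2 -1.23 ± 0.24, adjusted p = 0.0011), the difference from the control change not passing the test (adjusted p = 0.071). These counts are of the precursor locus and not of the mature microRNA. FSD1, the iron superoxide dismutase, stood at 488 ± 88.8 and 377 ± 23.8 CPM (adjusted p = 0.24) and was lower than control at 4 d (log2 -1.13 ± 0.18, adjusted p = 1.1e-05). MIR398b and FSD1 were named after their values were seen.

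The mature sequence of miR398b-3p and its best complementary stretch in each of the 3 targets are shown, since 2 of the targets rose and the precursor fell. They were read from TAIR10.1 in DNA letters, 5′ to 3′, the microRNA at chr5:4691107-4691127 on the plus strand, CSD1 within chr1:2827177-2827685 on the plus strand across an intron, CSD2 at chr2:12015572-12015592 on the plus strand and CCS at chr1:4267521-4267541 on the minus strand. Capitals mark the seed (bases 2 to 8) in the microRNA, and in the targets the bases that pair with it by Watson-Crick rules.
miR398b-3p: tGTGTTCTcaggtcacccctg
CSD1: aAGGGGTttCCTGAGAtCACA
CSD2: tgcGGGTGACCTGgGAAacat
CCS: attGGGaGACCTGgGAACACt
Of 21 positions, 17 pair in CSD1, 13 in CSD2 with 3 further G:U pairs, and 15 in CCS with 1 further G:U pair. A match of letters is a description and does not show cleavage in these plants.

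Some photosynthesis and clock genes changed with time in both kinds of plant. Of 18 carbon fixation genes 9 rose in infested plants (all genes 3.17%), 13 in the fit of 8 (all genes 6.2%), and 5 in control plants (all genes 5.87%). RBCS1B, a Rubisco small subunit that is nearly identical to other copies, rose from 725 ± 138 to 1390 ± 156 CPM (log2 0.94 ± 0.17, adjusted p = 0.00031), and in control plants from 1070 ± 83.1 to 1770 ± 206 CPM. RCA, Rubisco activase, rose from 9500 to 12100 CPM (adjusted p = 0.0016). Infested plants were lower than control in 15 of these 18 genes at 24 h (all genes 10.2%) and in 11 at 4 d (7.68%). With the 3 high control libraries left out, 9 were lower at 4 d (5.289%). None of the 18 differed in its change. Of 35 light-harvesting and photosystem genes only 1 was called in infested plants, and the median log2 change was 0.06. In the fit of 8, 2 were higher (all genes 6.2%) and 1 lower (6.57%). The 1 gene called was LHCB4.3, a light-harvesting protein, which rose from 13 ± 2.08 to 40.1 ± 10 CPM (adjusted p = 1.3e-06), and in control plants from 22.3 ± 2.88 to 72.1 ± 11.2. Of 17 clock genes 4 rose (all genes 3.17%) and 1 fell (2.43%) in infested plants. In control plants 2 rose (5.87%) and 2 fell (3.55%). A higher change under infestation was called in 3 (0.589%), or in none with the 3 high control libraries left out. The morning clock gene LHY stood at 52.2, 52.8, 62 and 66 CPM at 24 h and at 106, 110, 105 and 103 CPM at 4 d (log2 0.86 ± 0.08, adjusted p = 5.1e-10), and in control plants at 92.4 ± 4.65 and 129 ± 5.51 CPM. PRR7, which peaks later in the morning, fell from 128 ± 6.67 to 99.1 ± 3.21 CPM (adjusted p = 0.001), and in control plants from 128 ± 8.17 to 95.1 ± 7.44 CPM. The part of such clock differences in the results above was not tested. Of 9 floral organ genes 5 rose in infested (all genes 3.17%) and 4 in control plants (all genes 5.87%), for instance AP3 from 0.805 to 2.07 CPM and from 0.733 to 2.41 CPM. None of 25 cell division genes was called in infested plants, and 2 were called lower in the fit of 8 (all genes 6.57%). Most seed and root markers were too low to be tested, 2 of 6 in each list passing the filter.

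Promoter letters were counted in the 250 bases before the start, on either strand, as a description. CACGTG, the letters of the G-box that MYC factors are known to bind, occurred in 11.4% of 755 kept higher genes. It occurred in 7.41% of 135 lost, 7.29% of 96 turned and 13.1% of 312 undecided higher genes, against 7.19% of the 21919 genes tested. CGCGTT, known from calcium-responsive promoters, occurred in 2.65% of kept, 9.63% of lost and 8.33% of turned genes, against 2.74%. TTGAC, the core to which WRKY factors bind, occurred in 49.9%, 63% and 60.4%, against 44.9%. AAAATATCT, the evening element of clock genes, occurred in none of 129 genes that rose at least 2-fold in infested plants and in 7.96% of 113 that fell, against 2.44%. ACGTG, which lies within CACGTG, occurred in 38.4% of kept, 28.9% of lost and 37.5% of turned genes, against 23.3%. GCCGCC occurred in 1.85%, 2.96% and 5.21%, against 1.95%, and CCGAC, known from cold-responsive promoters, in 10.6%, 7.41% and 18.8%, against 12.6%.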

How the data were processed

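Whole-number read counts per gene were deposited by the authors in 1 table of 48 libraries and 33211 features. Per the submitters' processing notes, fastp, HISAT2, featureCounts, DESeq2 and TAIR10 were used, without versions or settings. Whether counting used strand is unknown here, so antisense neighbours may share reads, as may near-identical genes. Samples were grouped by the labels, and p-values measure the spread between pools.

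Genes passing filterByExpr (22252) were scaled by TMM and fitted with edgeR 4.0.16 in R 4.3.3, with 1 coefficient per group over 48 libraries and robust quasi-likelihood dispersion. F-tests were two-sided, with Benjamini-Hochberg adjustment over all genes tested and a threshold of 0.05. A standard error is the log2 change divided by the square root of F. Levels are TMM-scaled CPM, mean ± SD over 4 libraries, and are not divided by gene length. In bulk samples fewer cells of a type and less RNA per cell cannot be told apart. Totals were 12.5 to 23.4 M counts per library, median 18.9 M. No replicates were identical, and chi-square per gene was 2.77 to 20 between them. Counts were simulated for infested plants at 4 d against 24 h (22252 genes). Of 100 genes changed 2-fold 93% were recovered, and of 100 changed 4-fold 99%. There were 13 false calls, 6.3% of all calls. Changed genes were drawn above a minimum level, and each gene had the same spread in all groups. Recovery where the spread differs between groups was not tested.

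Comparisons, members and the 43 gene lists (594 loci, 575 tested) were chosen with earlier results of these data known. Named genes were the 12 largest rises and falls whose groups did not overlap, list anchors and most changed members, and leading genes of each class. The text prints some of them. Names and sequences were taken from TAIR10.1 through locus names (32548 features matched). Alternatives were RLE factors, library totals, no filter, only the libraries compared, DESeq2 1.42.0, a replicate block, each library left out and other rules for kept genes.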

Additional observations from a re-analysis of the deposited data

Results flagged for a closer look

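Changes from 24 h to 4 d differed between infested and control plants in 748 genes by edgeR's test of the difference. In 25 of 352 sets of 4 infested libraries (7.1%), 1 library lay far from the other 3 by Dixon's criterion, where chance gives about 1 in 20.

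At 24 h, replicate 1 was lowest in AT1G64380 (1.57 CPM) and highest in ACS6 (35.7 CPM), PORB (369 CPM) and LAS1 (83.8 CPM). Replicate 2 was highest in BR6OX2 (16.4 CPM). Replicate 3 was highest in MYB28 (67.6 CPM) and SAUR21 (12.6 CPM) and lowest in WRKY40 (25.8 CPM) and ERF11 (10.4 CPM). Replicate 4 was highest in AT4G22513 (10.2 CPM), IAA29 (2.91 CPM) and CSD2 (303 CPM), and lowest in FSD1 (355 CPM).

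At 4 d, replicate 1 was highest in CML38 (10.6 CPM), WRKY53 (14.7 CPM) and AT4G34770 (4.96 CPM). Replicate 2 was lowest in JAZ10 (79.2 CPM) and highest in GSTF10 (196 CPM). Replicate 3 was lowest in MPL1 (2.56 CPM), ERF104 (1.45 CPM), ACO1 (2.81 CPM) and MSRB9 (17.9 CPM), and highest in DFR (144 CPM), ACS6 (20.9 CPM) and SAUR21 (14.8 CPM).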

How the results depend on the processing

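Of 476 recomputed summary values, 423 lay within the set margin. These values are counts and percentages, so no direction was compared. The margin was wide: a move from 114 to 171 lower genes at least 2-fold in infested plants still lay within it. Of 103 named genes called in infested plants, 60 kept the call under each of 14 alternatives. The cause of the shifts below was not tested.

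With only the libraries compared, infested plants had 1380 higher and 1463 lower genes (76 and 105 list members), 302 higher differences of the changes, 2746 genes below control at 4 d and 2 turned lower first-day genes. With no fold minimum, 2882 genes were higher on the first day, with 1356 kept (47.1%), 167 turned and 227 lost, and 2275 lower, with 782 kept (34.4%), 12 turned and 62 lost. Where kept needed 2-fold, 46.4% of higher genes were kept and 61 lower genes (27.2%). The next 3 settings were chosen after seeing the data. Against control at 7 d, 171 turned, 46.7% were kept and 2 lower genes turned. Against control at 30 min, 27 lower genes turned. With 3 control libraries left out, control plants had 593 higher and 259 lower genes, differences of the changes numbered 55 and 343, 51 higher genes turned, and of the lower genes 0 turned and 5 were lost.

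With 1 library left out, infested calls ranged from 371 to 664 higher and 273 to 542 lower, or 62 to 122 lower at least 2-fold, list members from 22 to 35 lower, higher differences of the changes from 83 to 164, and turned lower genes from 0 to 2.

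Replicate numbers were not used to pair samples in the main fit. Same-numbered infested libraries of both times correlated at 0.075, 0.141, 0.012 and -0.02, and others at -0.167 to 0.113. At 4 d, same-numbered infested and control libraries correlated at 0.078, 0.071, 0.032 and 0.071, and others at -0.075 to 0.039. Same-numbered pairs were at -0.094 to 0.014 at 24 h, and at -0.231 to -0.022 in control plants of both times. Whether libraries of the same number share an effect was not tested. With a replicate block, calls in infested plants came to 907 higher and 692 lower, and no named gene lost its call. DESeq2 called 866 higher and 650 lower.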
